A study of Homo sapiens with 4 samples.

Results

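HIF1A, the oxygen-regulated alpha subunit of hypoxia-inducible factor 1, was described here together with 8 of its transcriptional targets outside glycolysis. The targets were EGLN1, EGLN3, CA9, BNIP3, BNIP3L, NDRG1, ANKRD37 and P4HA1. The genes were chosen by symbol, each symbol matched 1 row, and the 9 rows belong to a table of 78932 genes, of which 19511 had enough reads to be tested. All 9 passed that filter on low counts.

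The cells were RPMI 8226, an established human line from multiple myeloma, a cancer of plasma cells, and no other line was studied. They had been transfected with an antisense oligonucleotide (ASO), a short strand that pairs with a chosen RNA, here built with locked nucleic acid (LNA) bases. One group received an ASO against CELF2, an RNA-binding protein, at 5 nM, and the other a control ASO whose dose the labels do not state. The treatment lasted 72 hours and each group had 2 libraries, called replicates 1 and 2 here after the number in their labels. Whether that number marks a repeat of the same oligonucleotide or a different oligonucleotide is not stated, so the gap between the libraries of a group may include a difference between oligonucleotides. No label says that the 2 libraries of a group came from separate cultures, so p-values here measure library-to-library spread only, and that spread may be technical. No oxygen level is stated for either group. The labels name both poly(A) selection and removal of ribosomal RNA, and both methods keep polyadenylated mRNAs.

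Cells sense oxygen through HIF. When oxygen is present, the prolyl hydroxylases encoded by the EGLN genes modify the HIF alpha subunit, the VHL ubiquitin ligase then binds it, and the proteasome degrades it. When oxygen falls, the alpha subunit escapes this modification, pairs with ARNT and raises the transcription of genes that carry a hypoxia response element. Because the alpha subunit is controlled mainly as a protein, the mRNA level of HIF1A is not a measure of HIF activity. Myeloma cells grow in bone marrow, a tissue known for low oxygen.

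Total counts lay between 23599190 and 29161298 per library. Levels are given as CPM (read counts relative to library size, adjusted for library composition), and fold changes compare the CELF2 ASO with the control ASO. A gene is said to have risen or fallen where its adjusted p in edgeR was below 0.05. The target of the ASO had 128 CPM in each control library and 56.4 and 48.6 CPM in the CELF2 ASO libraries, a fall of 2.43-fold for CELF2 (edgeR adjusted p = 2.87e-05). Replicates differed beyond sampling noise, with a biological coefficient of variation of 3.58% in the control pair and 13.7% in the CELF2 ASO pair. All 10 plasma cell markers examined were detected, SDC1 and IRF4 among them, with summed levels of 3510 to 3770 CPM in the control and 3900 to 4460 CPM in the CELF2 ASO libraries. Among them 4 rose and 4 fell, where 27.5% of all tested genes rose and 27.9% fell. Markers of T and NK cells summed to 266 to 268 CPM in the control and 40.2 to 67.0 CPM in the CELF2 ASO libraries, of which CD8B alone made up 262 to 265 and 37.6 to 63.8 CPM, while CD3D, CD3G and CD2 held at most 2 counts in a group. Of the 4 tested, CD8B and ZAP70 fell, and CD8A and CD3E did not pass. Stromal and epithelial markers summed to 280 to 282 and 169 to 179 CPM, mostly VIM, KRT18 and EPCAM. Of the 6 tested, VIM, EPCAM and COL1A1 fell, KRT8 rose, and KRT18 and CDH1 did not pass. Myeloid markers summed to 8.09 to 8.72 and 3.31 to 3.67 CPM, with LYZ and S100A8 at 0 in every library. Of the 4 myeloid markers tested, 3 fell and CSF1R did not pass. The falls were S100A9 (76 counts in the control group and 2 in the CELF2 ASO group), FCGR1A (168 and 35) and CD14 (119 and 62). Endothelial markers summed to 1.96 to 4.51 CPM, with KDR at 0 throughout, and erythroid markers to at most 0.292 CPM, with HBA1 at 0 throughout. PECAM1, the endothelial marker with enough reads to be tested, held 104 and 157 counts in the control and CELF2 ASO groups and did not pass. Their part in the results below was not tested. In bulk RNA, fewer cells of a kind and less RNA per cell cannot be told apart.

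The short DNA core that HIF binds is known to be ACGTG or GCGTG, and the sites that follow are shown because they place this core in the promoters of the genes described. Promoter sequence came from RefSeq on GRCh38.p14 and covered the 250 bases before each start, and 7 of the 9 genes had an entry. BNIP3L and NDRG1 had none. ACGTG, searched on both strands, was found in 5 of these 7 windows. It was present in 23.2% of the 11419 windows of tested genes and in 18.7% of all 27305 windows. GCGTG was found in 2 of the 7, against 44.5% and 31.9%. G and C bases made up 60.4% (CA9) to 81.6% (BNIP3) of the 7 windows, beside a median of 64.8% over tested genes. Most of these genes were chosen as known HIF targets, so the shares are no test of the set. Each site below is 30 bases, written 5′ to 3′ on the strand of its gene, and capitals mark ACGTG or its reverse complement.
CA9: tcgtttccaatgCACGTacagcccgtacac
EGLN1: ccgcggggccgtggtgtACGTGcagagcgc
BNIP3: gcgcacgcgccgCACGTGccacacgcaccc
ANKRD37: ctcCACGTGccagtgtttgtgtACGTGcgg
P4HA1: tgtgatcgagctCACGTagcgagggctgca
The CA9 site lies at chr9:35673898-35673927 on the plus strand and ends at the base before the RefSeq start, within exons of CA9 and of its antisense neighbour ARHGEF39 in GENCODE 29. The EGLN1 site, chr1:231422288-231422317 on the minus strand, also ends at the base before the start. The BNIP3 site lies between genes at chr10:131982040-131982069 on the minus strand. The ANKRD37 site lies at chr4:185396676-185396705 on the plus strand, and the P4HA1 site at chr10:73096935-73096964 on the minus strand. The EGLN1, ANKRD37 and P4HA1 sites fall in annotated exons of their own genes. In BNIP3 and ANKRD37 the core overlaps itself as CACGTG, which is also the E-box bound by MYC and related factors and was present in 8.72% of the windows of tested genes. BNIP3 held 4 copies of GCGTG on the opposite strand as well, HIF1A held a GCGTG at position -204 from its start and no ACGTG, and EGLN3 had neither core in its window. A match of letters is a description and not evidence of binding.

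HIF1A rose slightly while 6 of the 8 targets chosen here fell. A further 29 tested targets outside glycolysis, described below, did not share a direction (10 rose and 8 fell). Of the 9 genes, 2 rose (HIF1A and BNIP3L), 6 fell (CA9, EGLN3, P4HA1, BNIP3, EGLN1 and NDRG1) and ANKRD37 did not pass. The comparison changed a large part of the transcriptome, so these counts need the background: 55.5% of tested genes passed, 27.5% as rises and 27.9% as falls. The median log2 fold change over the 8 targets was -0.59, beside 0.04 over all genes tested. The genes were chosen with earlier results of these data known, so this contrast is no test of the set. The 2 groups did not overlap in CPM for any of the 9 genes, and the same held for 79.6% of all tested genes.

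**Figure D1:**
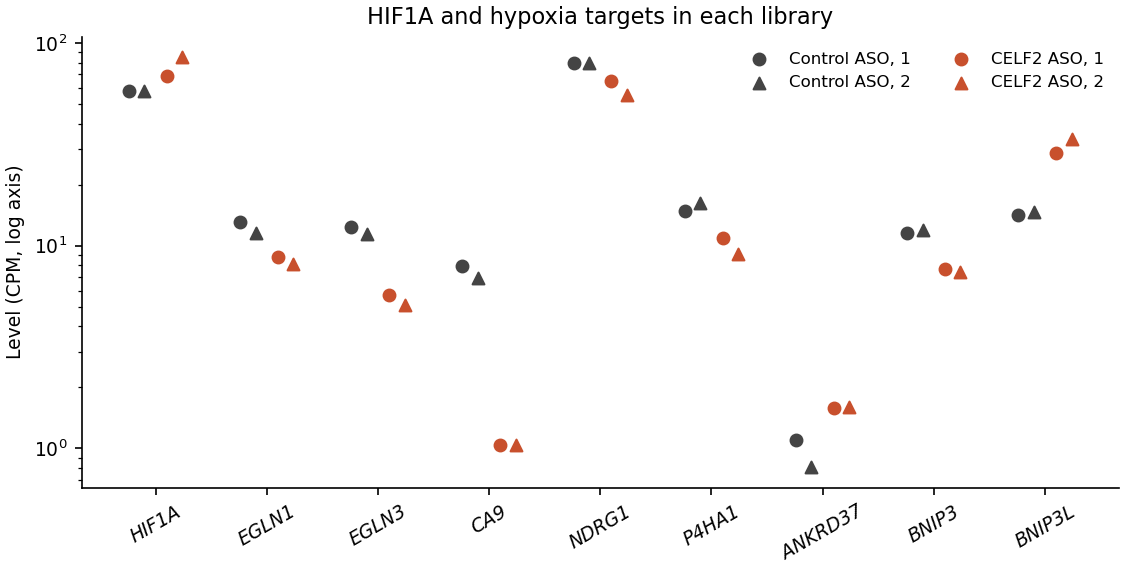
Level of each gene in each library, in CPM on a log axis, with control ASO libraries in grey and CELF2 ASO libraries in orange, and circles and triangles for replicates 1 and 2. CA9 drops from 7.98 and 6.93 CPM to 1.04 CPM in both CELF2 ASO libraries, while BNIP3L climbs from 14.1 and 14.6 to 28.6 and 33.5 CPM.

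HIF1A (ENSG00000100644, GRCh38 chromosome 14, 61695513 to 61748259, plus strand) had 57.8 and 58.3 CPM with the control ASO and 68.8 and 85.1 CPM with the CELF2 ASO. Both CELF2 ASO libraries lay above both controls, and they stood further from each other than the controls did. The rise was 1.33-fold (log2 0.41, standard error 0.11, edgeR adjusted p = 0.0136), and 34.2% of tested genes had a higher log2 fold change. The size of the rise rested on replicate 2, since the log2 fold change was 0.23 without CELF2_LNA_ASO replicate 2 and 0.56 without CELF2_LNA_ASO replicate 1. The call was lost without control_LNA_ASO replicate 1 (edgeR adjusted p = 0.0588, where the alternatives ranged from 3.33e-18 to 0.0588). The antisense gene HIF1A-AS3, on the minus strand of the same locus, held 34 and 30 counts with the control ASO and 51 and 40 with the CELF2 ASO. It did not pass (log2 0.50, edgeR adjusted p = 0.111). Its counts were 1.92% to 2.6% of the summed counts of both genes, and its exons share no base with those of HIF1A in GENCODE 29. HIF1A-AS1, whose exons cover 2.27% of the exon bases of HIF1A on the other strand, was not analysed here.

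Neither EPAS1 nor ARNT passed the test. EPAS1, which encodes HIF-2 alpha, had 8.34 and 7.95 CPM with the control ASO and 11.5 and 8.85 CPM with the CELF2 ASO, and did not pass (log2 0.32, 95% interval -0.05 to 0.70, edgeR adjusted p = 0.121). It passed without CELF2_LNA_ASO replicate 2 (edgeR adjusted p = 0.000687, with alternatives from 0.000687 to 0.454). ARNT, the partner that both alpha subunits need for binding DNA, had 65.9 and 68.1 CPM with the control ASO and 67.1 and 74.6 CPM with the CELF2 ASO, and the groups overlapped (log2 0.08, 95% interval -0.11 to 0.27, edgeR adjusted p = 0.434). Its sign depended on CELF2_LNA_ASO replicate 2 (log2 -0.02 without it), and it passed without CELF2_LNA_ASO replicate 1 (edgeR adjusted p = 0.0181, with alternatives from 0.0181 to 0.907). HIF3A and ARNT2 held at most 3 counts in a group and were not tested. CITED2, which competes with HIF for binding to the coactivator p300, fell 2.11-fold from 65.2 and 67.8 CPM to 33.5 and 29.6 CPM (edgeR adjusted p = 5.2e-05). The acetyltransferase genes EP300 and CREBBP fell 1.30-fold and 1.28-fold, and each call was lost without control_LNA_ASO replicate 1 (edgeR adjusted p = 0.0524 and 0.0664, each the highest among its alternatives, which reached down to 5.32e-18 and 1.48e-14). Of the 5 tested genes of this list, 3 fell, 2 did not pass and 0 rose, and the median log2 was -0.36. The 3 falls include CITED2, a competitor of HIF rather than its coactivator. Of all tested genes, 27.9% fell and 27.5% rose.

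Both hydroxylase genes of the set fell. EGLN1 (ENSG00000135766, chromosome 1, 231363751 to 231425044, minus strand) encodes PHD2, the main HIF hydroxylase, and is itself induced by HIF. It had 13.1 and 11.6 CPM with the control ASO and 8.81 and 8.10 CPM with the CELF2 ASO. Its fall was 1.46-fold (log2 -0.55, standard error 0.13, edgeR adjusted p = 0.00926) and the groups did not overlap. Without control_LNA_ASO replicate 1 the call on EGLN1 was lost (edgeR adjusted p = 0.0891, with alternatives from 1.09e-05 to 0.0891).

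EGLN3 (ENSG00000129521, chromosome 14, 33924231 to 34462774, minus strand) encodes PHD3, a hydroxylase whose mRNA is strongly induced by HIF in many cell types. It went from 12.4 and 11.4 CPM to 5.72 and 5.09 CPM, so both CELF2 ASO libraries lay under 6 CPM while both controls exceeded 11 CPM. The fall was 2.2-fold (log2 -1.14, standard error 0.14, edgeR adjusted p = 0.000365), and 9.07% of tested genes had a lower log2 fold change. EGLN2, which encodes PHD1 and was chosen for naming after its values were seen, had 2.04 to 2.82 CPM in the 4 libraries with no direction that held (log2 -0.04, 95% interval -0.60 to 0.51, edgeR adjusted p = 0.888). It shares 30.6% of its exon bases with the readthrough gene RAB4B-EGLN2, which was listed at 0 in all libraries, so its level is uncertain. Within the hydroxylase family, the EGLN3 share of counts was 43.8% and 45.5% with the control ASO against 33.5% and 33.2% with the CELF2 ASO.

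Genes of the machinery that marks hydroxylated HIF for degradation were found among both the rises and the falls. VHL, the subunit that recognises hydroxylated HIF alpha, rose from 28.5 and 27.0 CPM to 57.1 and 54.1 CPM (2.01-fold, log2 1.00, standard error 0.08, edgeR adjusted p = 5.45e-05). RBX1, the RING subunit of the same ligase, fell 2.00-fold from 42.5 and 40.9 to 19.7 and 21.9 CPM, and the adaptor genes ELOC and ELOB fell 1.76-fold and 1.71-fold. CUL2, the scaffold subunit, had 25.8 and 24.2 CPM with the control ASO and 23.4 and 27.1 CPM with the CELF2 ASO, so the groups overlapped (log2 0.01, 95% interval -0.24 to 0.27, edgeR adjusted p = 0.923), and its sign changed with the scaling and the libraries used. ELOB shares 16.8% of its exon bases with the abundant gene SRRM2 on the other strand. SIAH1, a ubiquitin ligase known to act on EGLN proteins, rose 1.95-fold from 3.71 and 2.51 to 6.08 and 6.14 CPM (edgeR adjusted p = 0.00582), and shares 26.7% of its exon bases with LONP2. HIF1AN, the asparagine hydroxylase that blocks coactivator binding, was chosen for naming after its values were seen and did not pass (log2 -0.01, 95% interval -0.18 to 0.17, edgeR adjusted p = 0.95). In all, 2 of 10 genes of this list rose, 4 fell and 4 did not pass, with a median log2 of -0.03, and the share that passed was near the 55.5% of all tested genes.

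**Figure D2:**
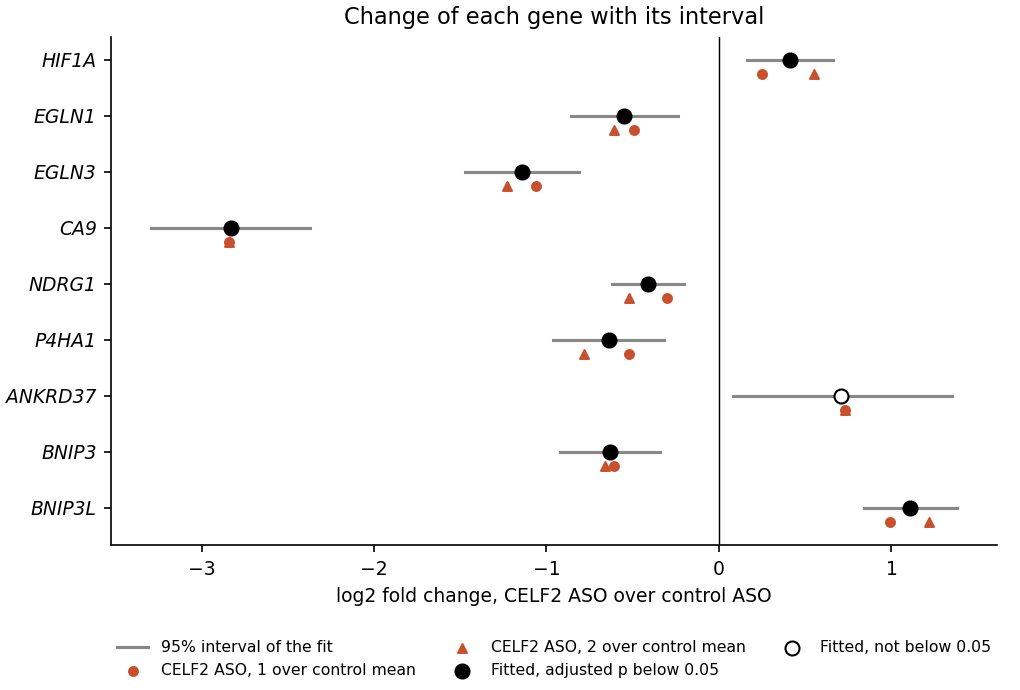
Fitted log2 fold change of each gene with its 95% interval in grey, and below it each CELF2 ASO library against the mean of the control libraries. CA9 lies at -2.83 and BNIP3L at 1.11, and ANKRD37, drawn open, is the gene that did not pass.

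CA9 showed the largest change of the 9 genes. CA9 (ENSG00000107159, chromosome 9, 35673856 to 35681159, plus strand) encodes carbonic anhydrase IX, a membrane enzyme that handles acid at the cell surface and a widely used marker of hypoxia. Its counts were 224 and 163 with the control ASO against 29 and 25 with the CELF2 ASO, or 7.98 and 6.93 against 1.04 and 1.04 CPM. The close match of the CELF2 ASO libraries rests on these few reads. The fall was 7.13-fold (log2 -2.83, 95% interval -3.29 to -2.37, edgeR adjusted p = 2.75e-05), and 0.472% of tested genes had a lower log2 fold change. The counts of CA9 were 12.1% and 10.6% of the summed counts of CA9 and HIF1A with the control ASO against 1.49% and 1.21% with the CELF2 ASO, a comparison that library scaling does not touch.

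CA9 shares 38.5% of its exon bases with ARHGEF39 on the other strand. ARHGEF39 held 252 and 191 counts with the control ASO and 138 and 115 with the CELF2 ASO and fell 1.75-fold (edgeR adjusted p = 0.0024). Without a stated strand setting, part of either signal may belong to the other gene, and this was not tested. Among relatives, CA12 and CA2 held at most 4 counts in a group. CA13 rose 1.93-fold at a low level, from 0.927 and 0.595 to 1.44 and 1.54 CPM (edgeR adjusted p = 0.0309). That call was lost with DESeq2 (adjusted p = 0.147) and without control_LNA_ASO replicate 2 (adjusted p = 0.216), with alternatives from 0.0212 to 0.216.

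NDRG1 (ENSG00000104419, chromosome 8, 133237171 to 133302022, minus strand), a gene induced by hypoxia, metals and other stresses, had 79.9 and 79.8 CPM with the control ASO and 64.8 and 55.5 CPM with the CELF2 ASO. The controls were nearly equal and both CELF2 ASO libraries lay below them. The fall was 1.33-fold (log2 -0.41, standard error 0.09, edgeR adjusted p = 0.00671), and the call was lost with libraries scaled by totals alone (adjusted p = 0.0534, with alternatives from 7.23e-15 to 0.0534). That scaling moved the median log2 of all tested genes from 0.04 to 0.16. Its relative NDRG4 fell 1.54-fold (edgeR adjusted p = 0.0127), while NDRG3 (log2 -0.20, edgeR adjusted p = 0.124) and NDRG2 (log2 -0.64, edgeR adjusted p = 0.267) did not pass. NDRG3 passed without CELF2_LNA_ASO replicate 1 (edgeR adjusted p = 0.00593, with alternatives from 0.00593 to 0.552).

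P4HA1 (ENSG00000122884, chromosome 10, 73007217 to 73096974, minus strand) encodes the catalytic alpha subunit of collagen prolyl 4-hydroxylase, an enzyme of the endoplasmic reticulum that is distinct from the HIF hydroxylases. It had 14.9 and 16.3 CPM with the control ASO and 10.9 and 9.06 CPM with the CELF2 ASO, with no overlap. The fall was 1.56-fold (log2 -0.64, standard error 0.14, edgeR adjusted p = 0.00519). P4HA2, the alternative alpha subunit and also a HIF target, fell further, 3.76-fold from 23.6 and 21.9 CPM to 6.84 and 5.22 CPM (edgeR adjusted p = 4.5e-05). The share of P4HA2 in the counts of both alpha subunits went from 61.4% and 57.3% to 38.6% and 36.5%. The beta subunit gene P4HB, which also encodes protein disulfide isomerase, rose 1.71-fold from 928 and 999 to 1570 and 1730 CPM (edgeR adjusted p = 0.000194). P4HA3 was below the filter with 12 and 7 counts in the control and CELF2 ASO groups. Of the 9 tested relatives of NDRG1, P4HA1 and CA9, 2 rose and 2 fell, with a median log2 of 0.20, where 55.5% of all tested genes passed.

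ANKRD37 (ENSG00000186352, chromosome 4, 185396021 to 185400628, plus strand), a small ankyrin repeat gene known as a direct HIF target, had the lowest CPM of the set in the control libraries. In the CELF2 ASO libraries CA9 was lower. It held 31 and 19 counts with the control ASO and 44 and 38 with the CELF2 ASO, or 1.1 and 0.808 against 1.58 and 1.59 CPM. The groups did not overlap, but the change did not pass (log2 0.71, 95% interval 0.08 to 1.35, edgeR adjusted p = 0.057). It passed with libraries scaled by totals alone (adjusted p = 0.0369) and with genes kept at 1 CPM (adjusted p = 0.0372), and the alternatives ranged from 0.0369 to 0.348. UFSP2, on the other strand, shares 35.2% of the exon bases of ANKRD37 and had 562, 474, 610 and 470 counts in the control and CELF2 ASO libraries (edgeR adjusted p = 0.713).

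BNIP3 and BNIP3L, a pair of related mitochondrial outer membrane proteins that recruit the autophagy machinery to mitochondria, moved apart. BNIP3 (ENSG00000176171, chromosome 10, 131966455 to 131982013, minus strand) went from 11.5 and 11.9 CPM to 7.66 and 7.43 CPM, and the libraries of each group were close to each other. Its fall was 1.55-fold (log2 -0.63, standard error 0.12, edgeR adjusted p = 0.00377). BNIP3L (ENSG00000104765, chromosome 8, 26382898 to 26505636, plus strand), also called NIX and known for clearing mitochondria from maturing red cells, went from 14.1 and 14.6 CPM to 28.6 and 33.5 CPM. Its rise was 2.16-fold (log2 1.11, standard error 0.11, edgeR adjusted p = 0.000152), and 13.6% of tested genes had a higher log2 fold change.

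The balance of the pair can be read within a library, without scaling. BNIP3L made up 55.2% of the summed counts of both genes in control_LNA_ASO replicate 1 (95% exact binomial interval 51.4 to 58.8) and 55.0% in replicate 2 (51.0 to 59.0). In the CELF2 ASO libraries it made up 78.9% (76.2 to 81.4) and 81.8% (79.3 to 84.2). The intervals cover counting error only. With 2 libraries against 2, an exact two-sided permutation test cannot go below p = 0.333, so no test of these shares is given.

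**Figure D3:**
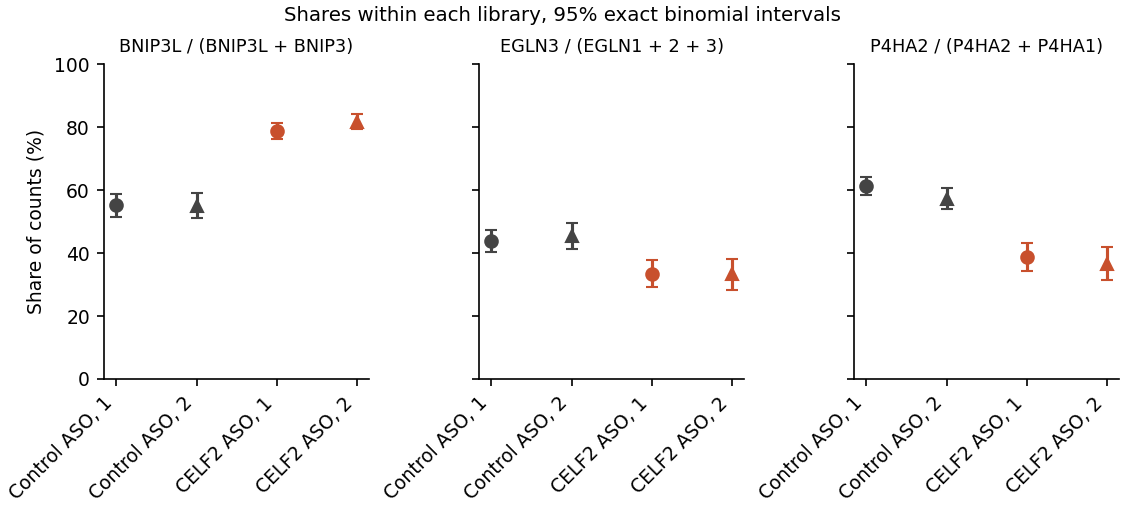
Share of counts within each library, in percent, for BNIP3L in its pair with BNIP3, EGLN3 among the 3 EGLN genes and P4HA2 among the 2 tested P4HA genes, with 95% exact binomial intervals as bars. BNIP3L moves up from 55.2% and 55.0% to 78.9% and 81.8%, and the EGLN3 and P4HA2 shares move down.

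Processed copies of BNIP3 are numerous in the genome. The 44 BNIP3 pseudogenes in the table held 85, 91, 126 and 112 counts in the control and CELF2 ASO libraries in total, and 16 of them had no count. BNIP3P11 rose from 12 and 10 to 30 and 34 counts (2.89-fold, edgeR adjusted p = 0.00599), while BNIP3P42 went from 32 and 22 to 17 and 20 counts and did not pass (edgeR adjusted p = 0.186). How reads that match several copies were counted is not stated, so the BNIP3 level could include or lack such reads.

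Other mitophagy genes were mixed, with 7 of 15 tested rising, 4 falling and a median log2 of 0.39. Of all tested genes, 27.5% rose and 27.9% fell. MAP1LC3B, which encodes the autophagosome protein LC3B that BNIP3 and BNIP3L bind, rose 3.07-fold from 25.9 and 26.9 to 71.6 and 90.4 CPM (edgeR adjusted p = 3.25e-05). The autophagy receptor gene CALCOCO2 rose 1.78-fold and NLRX1, which encodes a mitochondrial NOD-like receptor, 1.86-fold. TMEM11, a mitochondrial protein known to bind both BNIP3 and BNIP3L, fell 1.97-fold from 34.5 and 35.6 to 17.8 CPM in both CELF2 ASO libraries (edgeR adjusted p = 9.89e-05). PHB2, which encodes a receptor of the inner membrane, fell 1.30-fold. Its call was lost without control_LNA_ASO replicate 2 (adjusted p = 0.0797, with alternatives from 2.16e-16 to 0.0797). PPTC7, which encodes a phosphatase that limits BNIP3 and BNIP3L protein, fell 1.22-fold, a call lost in 4 of 12 alternatives (highest adjusted p = 0.216 and lowest 6.51e-05), namely totals alone, DESeq2 and without either control library.

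Further HIF targets outside glycolysis did not share a direction. Of 29 tested, 10 rose, 8 fell and 11 did not pass, with a median log2 of 0.04, equal to that of all tested genes. The part that passed was near the 55.5% of all tested genes. DDIT4, an inhibitor of mTORC1, rose 5.08-fold from 46.3 and 49.5 to 236 and 251 CPM. The secreted glycoprotein gene STC2 rose 5.12-fold from 38.3 and 42.9 to 217 and 199 CPM. VEGFA, the main angiogenic growth factor gene, rose 2.02-fold from 57.4 and 54.8 to 112 and 115 CPM. DDIT4 shares 41.2% of its exon bases with an antisense gene. Among the falls, TFRC, the transferrin receptor gene, went from 569 and 584 to 235 and 199 CPM (2.66-fold), and PLOD1, a collagen lysyl hydroxylase gene, fell 1.77-fold from 200 and 207 to 117 and 112 CPM. P4HA2, described above, belongs to this list as well.

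Of the glycolytic targets of HIF, 17 of 22 fell, 1 rose and 4 did not pass, with a median log2 of -1.13. Falls made up 27.9% of all tested genes and rises 27.5%. The falls included LDHA, which encodes lactate dehydrogenase (4.55-fold), TPI1, which encodes triosephosphate isomerase (4.01-fold), and SLC2A1, which encodes the glucose transporter GLUT1 (3.01-fold). The gene that rose was SLC2A3, another glucose transporter, 2.67-fold from 2.85 and 2.59 to 6.37 and 8.27 CPM (edgeR adjusted p = 0.000628). Whether the glycolytic and other targets differ was not tested.

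**Figure D4:**
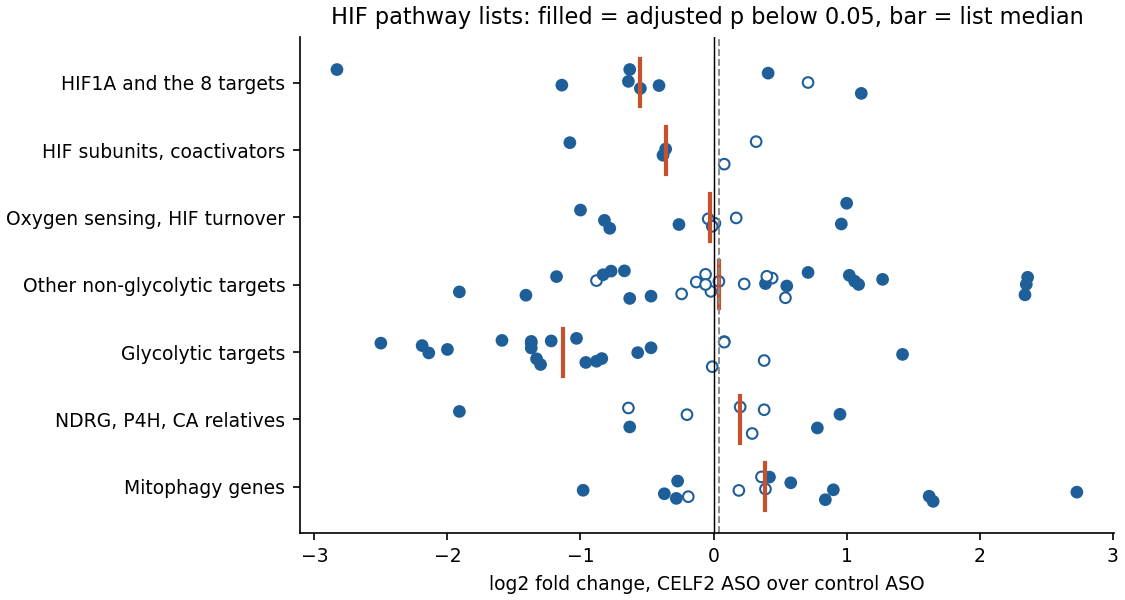
log2 fold change of every tested gene in each list of the HIF pathway, filled where the adjusted p was below 0.05, with the list median as an orange bar and the median of all tested genes as a dashed line. The 9 genes have a median of -0.55, the glycolytic targets -1.13 and the mitophagy genes 0.39.

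Levels of different genes were compared per kilobase of merged exons from GENCODE 29. In the control libraries HIF1A led with 11.3 CPM per kb, followed by NDRG1 with 8.13, P4HA1 with 5.04, CA9 with 4.47, BNIP3L with 3.34, BNIP3 with 2.20, EGLN1 with 1.70, EGLN3 with 1.62 and ANKRD37 with 0.371 CPM per kb. EGLN1 and EGLN3 overlapped in this order, at 1.60 to 1.81 and 1.55 to 1.69 CPM per kb, and P4HA1 and CA9 came close, at 4.81 to 5.26 and 4.15 to 4.78 CPM per kb. In the CELF2 ASO libraries HIF1A still led with 14.9 CPM per kb, and BNIP3L, at 7.21, stood above NDRG1, at 6.13 CPM per kb. That order rested on replicate 2 (7.78 and 5.65 CPM per kb), since BNIP3L and NDRG1 were nearly equal in replicate 1 (6.65 and 6.6). CA9 had moved next to the scarcest gene, with 0.625 CPM per kb beside 0.614 for ANKRD37, and EGLN3 lay at 0.735. Merged exons count every annotated isoform, so genes with many isoforms appear lower on this scale.

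For the 9 genes the CELF2 ASO libraries differed in degree rather than direction, which follows from their groups not overlapping. Relative to the control mean, 7 of the 9 genes lay further away in CELF2_LNA_ASO replicate 2 than in replicate 1, and CA9 and ANKRD37 were equal in both at 2 decimals. The share of all tested genes with this order was not computed, so the order cannot be called particular to the 9 genes. Some gaps were small, as for BNIP3 (log2 -0.61 in replicate 1 and -0.66 in replicate 2) and EGLN1 (-0.49 and -0.61). The gap between these libraries was widest for HIF1A (log2 0.25 in replicate 1 and 0.55 in replicate 2), P4HA1 (-0.52 and -0.78), BNIP3L (0.99 and 1.22) and NDRG1 (-0.30 and -0.52). Between the control libraries the widest gap was that of ANKRD37 (log2 -0.45 for replicate 2 over replicate 1), where counts were lowest.

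**Figure D5:**
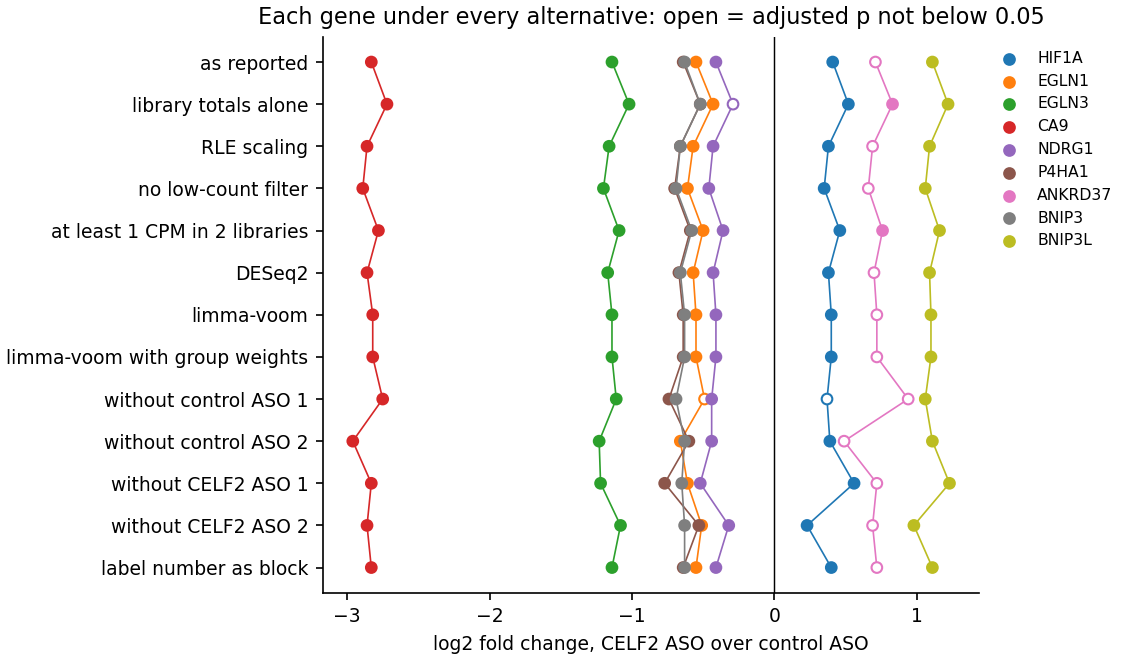
log2 fold change of each gene as reported and under each of 12 alternatives, with open points where the adjusted p was not below 0.05. No gene changes sign, HIF1A spans 0.23 to 0.56 and CA9 spans -2.96 to -2.72.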

How the data were processed

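The authors deposited raw read counts per gene, whole numbers with no normalization that the values show, for 2 control and 2 CELF2 ASO libraries. The submitters' processing notes name the build GRCh38, the aligner STAR (2.7.11b), featureCounts (2.0.8) with Subread, Salmon (1.10.0) and bcl2fastq, without saying what each did. Strand setting, annotation release and the treatment of multi-mapping reads: not given in the sources used here. Rows naming no gene (97 of 79029) held 1 to 3 counts per library and were left out.

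The fit used edgeR 4.0.16 under R 4.3.3. Low-count genes were removed with filterByExpr (minimum count 10, minimum total 15), libraries were scaled by TMM, and groups were compared over all 4 libraries in a quasi-likelihood fit (two-sided, robust) and Benjamini-Hochberg adjustment over all tested genes, at a threshold of 0.05. Standard errors are the absolute log2 fold change over the square root of F, and 95% intervals use the t quantile of the fit. They and the adjusted p-values pool the spread of both groups. That spread was unequal, with a biological coefficient of variation of 3.58% in the control pair and 13.7% in the CELF2 ASO pair. In simulated counts over 18834 genes, the test called 22 of 67 genes changed 1.5-fold, 43 of 67 changed 2-fold, 64 of 66 changed 4-fold and 9 unchanged genes. The simulation gave both groups the same spread, unlike the data. It changed few genes, none of them scarce, whereas 55.5% of tested genes passed in the data. The adjustment depends on the share of changed genes, so these figures do not give the rates in the data. Counting precision within a library is given by exact Clopper-Pearson intervals.

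The genes and lists were chosen with earlier results of these data known. Besides the 9 genes and CELF2, up to 3 rises and 3 falls per list with the smallest adjusted p were named, with the tested antisense genes and processed copies (48 of 51 such genes were below the filter). EPAS1, ARNT, EGLN2, HIF1AN, CUL2, ARHGEF39 and UFSP2, the genes below the filter, NDRG2 and NDRG3, and the pairs whose shares are given were chosen for naming after their values were seen. Alternatives were RLE scaling, totals alone, other count filters, DESeq2 1.42.0, limma-voom (limma 3.58.1) with and without group weights, leaving out each library, and the label's number as a block. Symbols came from a name table (61481 of 78932 IDs matched), and positions and exon overlaps from GENCODE 29, so overlaps with genes annotated later were not examined.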

Additional observations from a re-analysis of the deposited data

How the results depend on the processing

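Over 12 alternatives and 9 genes (108 fits), no gene changed sign, and 103 values stayed on their side of the threshold. HIF1A and EGLN1 lost their calls without control_LNA_ASO replicate 1, NDRG1 lost its call with totals alone, and ANKRD37 gained a call with totals alone and with the 1 CPM filter. When each library was left out in turn, 1 to 2 of the 9 genes rose and 5 to 6 fell, and over all genes 4091 to 6105 rose and 4511 to 6242 fell. Scaling by totals alone gave 6294 rises and 4541 falls, and DESeq2 gave 3993 and 4732. Fits without a CELF2 ASO library take their spread from the control pair alone, and those without a control library from the CELF2 ASO pair alone. The replicate numbers in the labels are not said to pair the libraries, and same-numbered libraries did not deviate together (correlation over genes 0.0343). With the number as a replicate block, 5407 genes rose and 5400 fell, and 2 and 6 of the 9 genes. Small changes reversed in ARNT (-0.02 without CELF2_LNA_ASO replicate 2), CUL2 (-0.01 with RLE scaling and with DESeq2, -0.04 with no filter, -0.06 without control_LNA_ASO replicate 2, -0.11 without CELF2_LNA_ASO replicate 2), EGLN2 (0.07 with totals alone, 0.01 with the 1 CPM filter, 0.18 without control_LNA_ASO replicate 1, 0.04 without CELF2_LNA_ASO replicate 2), HIF1AN (0.11 with totals alone, 0.05 with the 1 CPM filter and 0.05 without CELF2_LNA_ASO replicate 1) and UFSP2 (-0.01 with no filter, -0.03 without CELF2_LNA_ASO replicate 1), all log2 values that did not pass. Leaving out each library gave -0.02 to 0.16 for ARNT, -0.11 to 0.12 for CUL2, -0.28 to 0.18 for EGLN2 and -0.07 to 0.05 for HIF1AN. The cause was not tested. Depth limits ANKRD37, with 19 to 44 counts per library, and CA9 in the CELF2 ASO libraries.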
